A study of Homo sapiens with 15 samples.

Results

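The genes described here are 10 members of the poly(A)-binding protein group, taken by gene name from the 55773 rows of a table of ribosome footprints in human HEK293 cells. They are the cytoplasmic poly(A)-binding proteins PABPC1, PABPC3, PABPC4, PABPC4L and PABPC5, the nuclear PABPN1, the regulators PAIP1, PAIP2 and PAIP2B, and LARP1. All 10 names were found. The set was selected on measured values of these same libraries: PABPC4L, which was nearly off in the ZC3H7A line, chose it. The values of PABPC4L in that line are therefore given as a description with no test, and PABPC4L is left out of the counts of members there.

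Cytoplasmic poly(A)-binding proteins coat the tail of an mRNA and contact eIF4G at the cap, which joins both ends of the message and favours initiation. PAIP1 strengthens this contact, PAIP2 and PAIP2B displace the protein from the tail, and LARP1 binds both the protein and the capped start of TOP mRNAs, which encode much of the translation machinery. PABPN1 works in the nucleus, where it sets the length of new tails.

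Ribosome profiling sequences the mRNA fragments that ribosomes protect from RNase, so a level here combines mRNA abundance and translation, which cannot be told apart. HEK293 is an established embryonic kidney line. The study measured 15 libraries in 5 groups of 3. The Flag/HA control group is an inducible HEK293 line that overexpresses the Flag/HA tag alone, the ZC3H7A group overexpresses Flag/HA-ZC3H7A and the ZC3H7B group Flag/HA-ZC3H7B. Both are CCCH zinc finger proteins. All 9 of these libraries, the control included, came from cells given doxycycline at 1 µg/mL for 24 h, and the labels call the 3 samples of each group independent replicates. Every construct has a line to itself, so a difference between lines and a response to the protein cannot be told apart. The Parental group is wild-type with a control short hairpin RNA, and the ZC3H7A/B-DD group carries, by its label, a ZC3H7A deletion plus a hairpin that targets ZC3H7B. Both were grown under puromycin at 5 µg/mL until 2 passages before collection, and both were lysed with cycloheximide at 100 µg/mL. Nothing in the labels says that these 6 libraries came from separate cultures, so p-values in this set reflect the spread of the samples at hand, and that spread may be technical. The 2 sets also differ in lysis buffer, library kit and laboratory, and tests were run only within a set.

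Libraries held 22661812 to 29515572 reads on genes in the Flag/HA set and 20777204 to 42680589 in the other set. Values are normalized counts, that is, reads scaled by 1 factor per library, and errors are the SD over 3 libraries. ZC3H7A stood at 37598 to 38675 in its own line against 6509 to 6607 in the Flag/HA control, and ZC3H7B at 27182 to 28936 against 2089 to 2230. In the libraries labelled ZC3H7A/B-DD neither target was lower: ZC3H7A spanned 1890.3 to 7116 against 1820 to 2311 in Parental, and ZC3H7B 2399 to 3948 against 2321 to 2609. Directions in that comparison therefore rest on the labels. The 7 HEK293 markers used, VIM and NEFL among them, were all above 0 in every group. Their summed level was 18759 to 19802 in the Flag/HA control, 25681 to 27816 in the ZC3H7A line, 24927 to 27776 in the ZC3H7B line, 21215 to 30461 in Parental and 42595 to 47391 in the libraries labelled ZC3H7A/B-DD. Most of the last difference lay in VIM, at 41677 ± 2444 against 21922 ± 4964, while NEFL stood at 294 in both. The 6 fibroblast markers summed to 107 to 139 in the Flag/HA control, 154 to 169 in the ZC3H7A line, 155 to 194.5 in the ZC3H7B line, 575 to 759 in Parental and 394 to 497 in the libraries labelled ZC3H7A/B-DD. The 6 blood cell markers summed to 616 to 803 in the Flag/HA control, 266 to 328 in the ZC3H7A line, 348 to 459 in the ZC3H7B line, 172 to 217 in Parental and 334 to 378 in the libraries labelled ZC3H7A/B-DD. Each of the 3 sums thus differed without overlap between the groups compared with a reference. The part of these markers in the results was not tested. Parental replicate 3 stood apart. Its counts differed from those of replicates 1 and 2 by 74.8 and 55.3 times what counting alone gives (chi-square over its degrees of freedom), against 7.63 between those 2 and at most 22.1 within any other group.

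Coding sequences (GENCODE release 29 models on GRCh38) show which members can be told apart by a footprint. PABPC4L, on chromosome 4 from 134196333 to 134201748 on the minus strand, has 1 coding exon of 1110 bases. PABPC4, on chromosome 1 from 39560816 to 39576790, has 15 coding exons and 1980 bases. Over 1110 aligned bases they are 78.5% identical. The stretch printed next is where they are most alike, since it holds the 32 bases they share without a difference, and capitals mark the 14 of 90 bases that differ. The PABPC4L bases are 649 to 738 of its coding sequence and the PABPC4 bases 652 to 741.
PABPC4L: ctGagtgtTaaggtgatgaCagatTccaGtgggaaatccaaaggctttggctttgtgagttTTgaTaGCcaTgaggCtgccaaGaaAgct
PABPC4: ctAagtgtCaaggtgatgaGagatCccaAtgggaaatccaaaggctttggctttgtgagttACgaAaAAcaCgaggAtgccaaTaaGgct
A window of 28 bases, close to the length of a footprint, occurs in both genes at only 5 of the 1083 positions of PABPC4L (0.462%), all inside that stretch. PABPC1 and PABPC3 are far harder to separate, at 95.6% identity over 1890 bases, and 27.5% of the windows of PABPC3 also occur in PABPC1. For PABPC1 itself, 53.3% of windows occur in some other gene, chiefly PABPC3 and the pseudogene PABPC1P4. The same holds for 71.2% of windows in PAIP1, nearly all of them in AC026271.1. It holds for 66.0% in PABPN1, most of them in the readthrough gene BCL2L2-PABPN1, whose exons cover 61.8% of the PABPN1 coding bases. No window of PABPC5, PAIP2, PAIP2B or LARP1 occurs in an annotated transcript of another gene. Only exact matches in transcripts were sought, and the rest of the genome was not searched. How reads with several positions were counted is not given in the sources used here, so PABPC1, PABPC3, PAIP1 and PABPN1 are uncertain to that extent. Antisense genes cover 12.4% of the coding bases of PABPC4 and 7.35% of those of PAIP2, and whether counting used the strand is not given either.

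PABPC4L, the short relative of PABPC4, chose the set by its values in the ZC3H7A line, so its spread over the groups is a description. Its 3 Flag/HA control libraries held 59.5, 39.5 and 64.1 normalized counts (54.4 ± 13.1). In the ZC3H7A line they held 0, 0 and 1.30, a total of 1 read against 131 reads in the control. In the ZC3H7B line they held 310.2, 305.8 and 269.9 (295 ± 22.1), from 616 reads. The groups did not overlap, with the ZC3H7A libraries at the bottom and the ZC3H7B libraries at the top. The control level was 121 times that of the ZC3H7A line, with a 95% counting interval of 21.3 to 4800, and the ZC3H7B level was 659 times it, with an interval of 118 to 26060. Intervals cover counting error only, and replicates in this set differed by 1.62 to 5.59 times what counting alone gives. Since the values in the ZC3H7A line chose the set, nothing is read from these intervals. PABPC4, which could have lent PABPC4L reads, stood at 10023 to 10609 in the same 3 ZC3H7A libraries in which PABPC4L held 0, 0 and 1 read. A loss in every cell and a loss in most cells of the culture cannot be told apart in bulk libraries.

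The rise of PABPC4L in the ZC3H7B line was not used to choose the members and could be tested. Measured as log2(value + 1), a scale on which low genes change less than in truth, it was 2.45 with an SE of 0.34 (limma adjusted p = 1.65e-06), a 5.45-fold change, higher in 3 of 3 libraries. It shares its control libraries with the ZC3H7A comparison. By size of change in either direction it ranked 85 among 15599 genes tested.

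In the other set PABPC4L was low throughout. Parental libraries held 12.1, 11.3 and 16.3 normalized counts (13.2 ± 2.65, 44 reads) and the libraries labelled ZC3H7A/B-DD held 1.56, 0 and 1.05 (0.868 ± 0.793, 3 reads). The groups did not overlap. The ratio was 12.5, with a 95% counting interval of 4.01 to 63.0. PABPC4L passed the filter on low values there only through the Parental libraries, where it was high, so it had to differ to enter the test. Its difference and the interval are therefore given as a description, with no p. PABPC4L is left out of the counts of members in that comparison.

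PABPC4L lies far from other protein-coding genes. The nearest on either side are PCDH10, 987727 bases before it, and PCDH18, 3317170 bases after it, both protocadherins, which are cell adhesion proteins. PCDH10 held 7.44 ± 0.23 in the Flag/HA control, 23.8 ± 3.94 in the ZC3H7A line and 2.40 ± 3.07 in the ZC3H7B line, the reverse of the order of PABPC4L. In the other set it held 17.4 ± 1.96 in Parental and 27.3 ± 5.22 in the libraries labelled ZC3H7A/B-DD. PCDH18 held 248 ± 37.6 in the control, 135 ± 13.8 in the ZC3H7A line and 160 ± 17.1 in the ZC3H7B line, lower in both overexpressing lines.

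Among 14195 other genes with a mean of at least 20 in some Flag/HA group, the 5 whose values most resembled PABPC4L over the 9 libraries, as log2(value + 1), had Pearson r from 0.993 to 0.996. These genes were picked for that likeness, the 9 points share 3 groups, and r is a description. KIAA0947 (now ICE1), a subunit of the complex that elongates small nuclear RNA transcripts, fell in the order ZC3H7B, control, ZC3H7A at 6058 ± 41.8, 5056 ± 75.7 and 3125 ± 124. MED10, a Mediator subunit, did so at 3821 ± 283, 2710 ± 119 and 1196 ± 75.9. HLCS, which attaches biotin to carboxylases, stood at 3673, 3224 and 2381, the axonemal dynein gene DNAH17 at 935, 746 and 427, and TXNRD1, a thioredoxin reductase, at 11400, 10296 and 7685. ICE1 (5420664 to 5490234) and MED10 (6371881 to 6378594) lie near each other on chromosome 5, and the other 3 are on chromosomes 21, 17 and 12. None shares the near absence of PABPC4L in the ZC3H7A line.

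**Figure D1:**
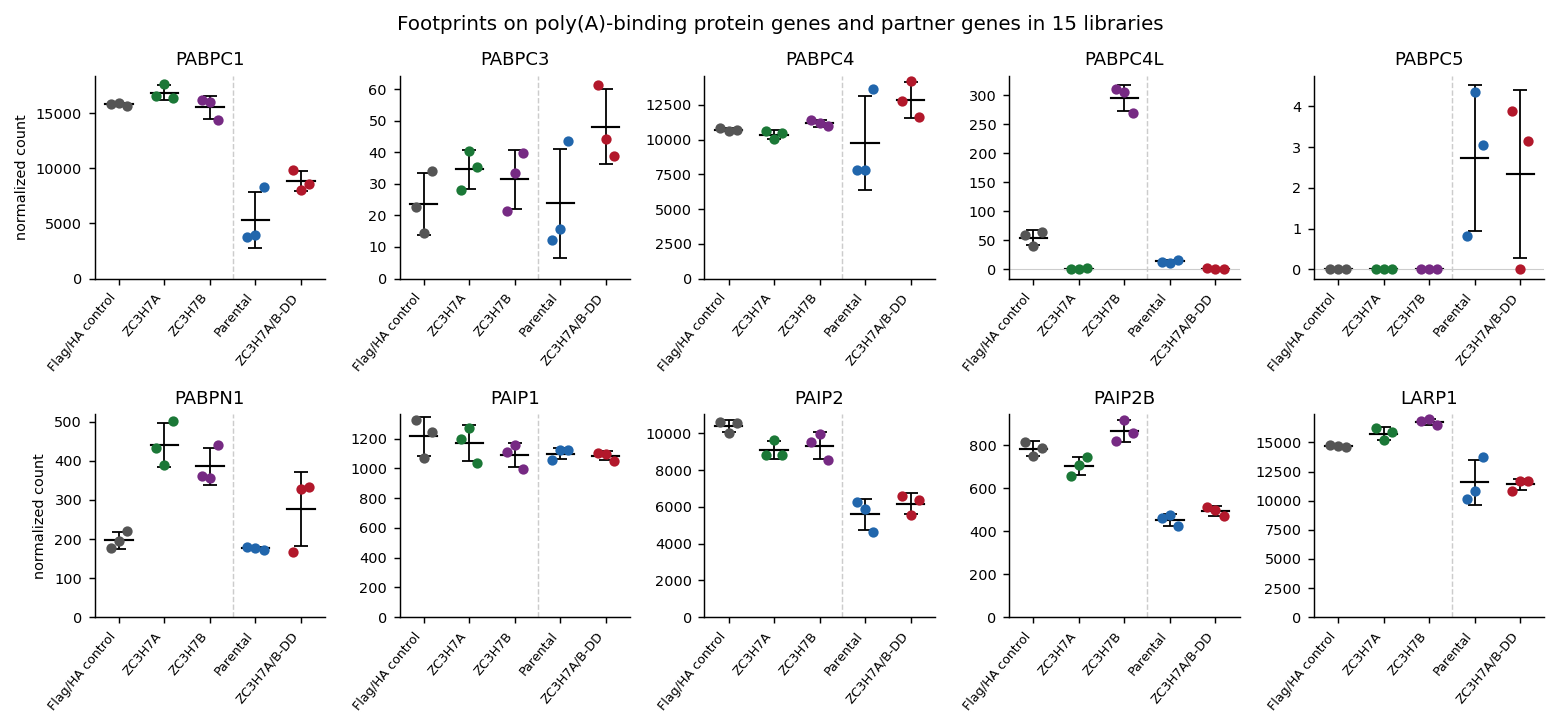
Normalized counts (vertical axis, each panel from 0 with its own scale) of the 10 genes in the 15 libraries, by group; points are libraries in replicate order, long bars the mean and whiskers the SD of 3. PABPC4L holds 1 read in the 3 ZC3H7A libraries and 616 in the ZC3H7B libraries, and Parental replicate 3 lies above the other Parental libraries for PABPC1, PABPC3 and PABPC4.

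Levels per kilobase of coding sequence ordered the members as follows. In the Flag/HA control PAIP2, the inhibitor that displaces poly(A)-binding protein, had the highest density at 27285 ± 843 normalized counts per kilobase, followed by PABPC1 at 8285 ± 79.3, PABPC4 at 5414 ± 49.2, LARP1 at 4804 ± 32.9, PAIP2B at 2126 ± 91.7, PAIP1 at 845 ± 90.8 and PABPN1 at 214 ± 24.1. PABPC4L at 49.0 ± 11.8 and PABPC3 at 12.5 ± 5.19 came last, above PABPC5 at 0. Each neighbouring pair in that order was separated in all 3 libraries. Such separation does not address reads with several positions, so the places of PABPC1, PABPC3, PAIP1 and PABPN1 remain uncertain to that extent. In both overexpressing lines PABPC4 and LARP1 overlapped, and in the ZC3H7A line PABPC4L came after PABPC3 and overlapped PABPC5. In the other set PABPC4 stood above PABPC1 in density. Parental libraries had the order PAIP2, PABPC4, LARP1, PABPC1, with LARP1 overlapping both PABPC4 and PABPC1, and PABPC4L stood beside PABPC3 there, which it overlapped. In the libraries labelled ZC3H7A/B-DD PABPC1 stood above LARP1, and PABPC4L was last, at 0.782 against 2.05 for PABPC5. The ratio of PABPC4 to PABPC1 per base was 0.641 to 0.660 in the Flag/HA control and 1.59 to 2.00 in Parental libraries, sets that differ in lysis, kit and laboratory. Windows found in another gene make up 53.3% of PABPC1 and 8.76% of PABPC4, and their part in this ratio was not tested. PAIP2 exceeded its own paralog PAIP2B, with which it shares 71.4% of aligned bases, by 12.6 to 13.0 times per base in the control.

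**Figure D2:**
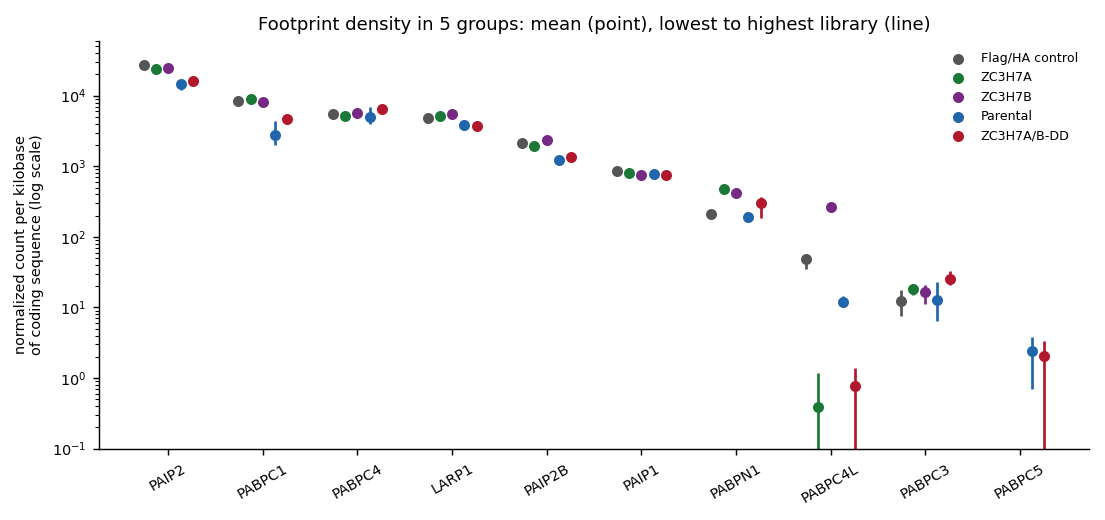
Normalized count per kilobase of coding sequence (vertical log axis) of each gene in 5 groups; points are means and lines run from the lowest to the highest library of 3, with means of 0 not drawn and lines that reach 0 ending at the foot of the axis. PAIP2 is highest in every group. PABPC4L runs from 0.392 in the ZC3H7A line, whose values chose the set, to 266 in the ZC3H7B line.

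The first comparison asks which footprint levels differ when ZC3H7A is added, with the tag alone as the reference. PABPN1 and LARP1 rose and PAIP2 fell. Of the 8 members tested other than PABPC4L, 3 passed, 2 higher and 1 lower. In this comparison 57.5% of all 15599 genes tested were called, 29.2% higher and 28.2% lower (4559 and 4405 genes, or 3671 and 5336 with upper-quartile scaling), and since its values chose the set nothing is read from the count. The median log2 change was 0.02 over these 8 members and 0.02 over all genes. PABPC5 had no read in any Flag/HA library and was not tested. Its limit from a count of 0, taken as 3 counts over a group, is a mean of 1.24 normalized counts in the control, 1.35 in the ZC3H7A line and 1.44 in the ZC3H7B line.

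With ZC3H7B against the same control, PABPC4L, PABPN1 and LARP1 rose and PAIP2 fell, so 4 of 9 members tested passed, 3 higher and 1 lower. The background was 54.3% of all genes called, 28.9% higher and 25.4% lower (4509 and 3966 genes, or 3433 and 4986 with upper-quartile scaling), and the members' share lies near or below it. Their median log2 change was 0.14 against 0.04 for all genes. These 2 comparisons share their control libraries.

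Among the members other than PABPC4L, PABPN1, which sets tail length in the nucleus, changed most in both overexpressing lines. The Flag/HA control libraries held 176, 194 and 220.0 normalized counts. The ZC3H7A libraries held 433, 388 and 502, and the ZC3H7B libraries 360.4, 355 and 441. No library of either line overlapped the control. The log2 change was 1.16 (SE 0.12, limma adjusted p = 9.05e-09) in the ZC3H7A line and 0.97 (SE 0.12, limma adjusted p = 1.78e-07) in the ZC3H7B line. Its upstream neighbour BCL2L2, an apoptosis regulator that ends 9530 bases before PABPN1 on chromosome 14, rose alongside, from 278 ± 34.1 to 502 ± 87.8 and 502 ± 67.5 (log2 changes 0.84 and 0.85, limma adjusted p = 2.27e-06 and 2.32e-06). The readthrough row that joins both genes held 7.18 to 32.7 in the control, 6.52 to 23.8 in the ZC3H7A line and 19.1 to 28.9 in the ZC3H7B line. With that row added to PABPN1 the changes were 1.05 and 0.91 (limma adjusted p = 2.39e-08 and 2.71e-07). The neighbour after it, SLC22A17, stood at 124 ± 15.0, 126 ± 15.9 and 114 ± 9.39. The part of the shared exons in these values was not tested.

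Among the regulators of poly(A)-binding protein, PAIP2 had small falls. Its control libraries held 10598, 10025 and 10564, the ZC3H7A libraries 8804, 9660 and 8792 and the ZC3H7B libraries 9530.5, 9941 and 8532. The control libraries lay above all 6 others. PAIP2 fell by 0.20 on the log2 scale in the ZC3H7A line (SE 0.053, limma adjusted p = 0.00289) and by 0.16 in the ZC3H7B line (SE 0.053, limma adjusted p = 0.0143). In a single fit over all 15 libraries neither passed (limma adjusted p = 0.124 and 0.228). Without ZC3H7B replicate 3, Flag/HA control replicate 1 or replicate 3 the latter missed the threshold (limma adjusted p = 0.0837, 0.0530 and 0.0584). PAIP2B, its paralog, took opposite sides of the control: 657 to 745 in the ZC3H7A line, 750.1 to 818 in the control and 818 to 919 in the ZC3H7B line. Neither difference from the control passed (log2 changes -0.16 and 0.14, limma adjusted p = 0.0601 and 0.0968). The first passed with TMM or upper-quartile scaling or without ZC3H7A replicate 3 (limma adjusted p = 0.0270, 0.00643 and 0.0295). PAIP1, the activator, overlapped in all 3 groups at 997 to 1328, with 95% intervals of the log2 change of -0.22 to 0.11 in the ZC3H7A line and -0.32 to 0.01 in the ZC3H7B line. Without Flag/HA control replicate 2 the latter change was -0.24 and passed (limma adjusted p = 0.0189).

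LARP1, the TOP mRNA-binding protein, had small rises. Its libraries held 14793, 14667 and 14594 in the control, 16222, 15183 and 15900 in the ZC3H7A line and 16844, 16989 and 16486 in the ZC3H7B line, with no overlap between any of the groups. The log2 change was 0.10 (SE 0.042, limma adjusted p = 0.0410) in the ZC3H7A line and 0.19 (SE 0.042, limma adjusted p = 0.000454) in the ZC3H7B line. The first call was lost without any 1 of 5 of the 6 libraries (all but ZC3H7A replicate 2), with adjusted p of 0.0747 to 0.158, and it was lost with TMM or upper-quartile scaling (limma adjusted p = 0.120 and 0.731) or with no filter on low values (limma adjusted p = 0.0804). The second was lost with upper-quartile scaling (0.11, limma adjusted p = 0.0667).

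The abundant cytoplasmic poly(A)-binding proteins moved little in the Flag/HA set. PABPC1, the main form, held 15656 to 15959 in the control, 16356 to 17644 in the ZC3H7A line and 14359 to 16177 in the ZC3H7B line. Its log2 change was 0.09 (95% interval -0.01 to 0.19) and -0.03 (-0.13 to 0.07) and passed in neither. PABPC4 held 10622 to 10817, 10023 to 10609 and 10942 to 11417 in the same order, with changes of -0.05 (-0.14 to 0.04) and 0.06 (-0.03 to 0.15) that did not pass. With upper-quartile scaling the first was -0.13 (limma adjusted p = 0.0222) and the second turned to -0.025. PABPC3, an intronless relative best known from testis, held 14.4 to 33.9, 28.1 to 40.5 and 21.3 to 39.6, from 57 to 77 reads a group, and its share of windows in common with PABPC1 makes even these levels uncertain. Neither of its changes passed, although that in the ZC3H7A line did without Flag/HA control replicate 3 (0.88, limma adjusted p = 0.0429). Together the 10 members took 0.150% to 0.152% of reads in the control, 0.159% to 0.160% in the ZC3H7A line and 0.159% to 0.164% in the ZC3H7B line.

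**Figure D3:**
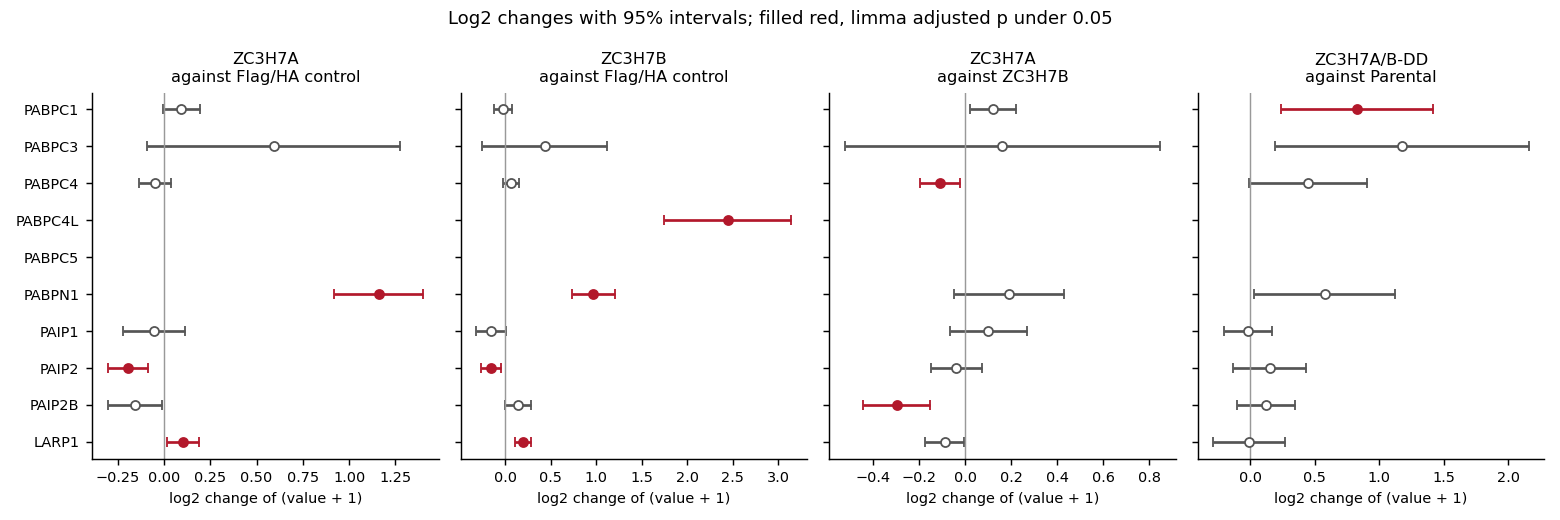
Log2 changes of (value + 1) with 95% intervals (horizontal axis, own scale in each panel) for the tested genes in 4 comparisons; filled red points have a limma adjusted p under 0.05. PABPC4L is drawn only for ZC3H7B against the control, since its other values chose the set or passed the filter through 1 group alone, and PABPC5 was not tested; the rise of PABPC4L there, 2.45, is the largest change drawn.

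Set directly against each other, the overexpressing lines differed at PAIP2B and PABPC4. Of 8 members tested other than PABPC4L, 0 were called higher and 2 lower in the ZC3H7A line than in the ZC3H7B line, where 36.6% of all genes were called, 18.4% higher and 18.2% lower. PAIP2B, the paralog of the inhibitor PAIP2, had a log2 difference of -0.30 (SE 0.070, limma adjusted p = 0.00163), with 657, 710 and 745 against 818, 919 and 858. All ZC3H7A libraries were lower. PABPC4 had a difference of -0.11 (SE 0.041, limma adjusted p = 0.0416), with 10609, 10023 and 10453 against 11417, 11171 and 10942. That call was lost without ZC3H7A replicate 2 or 3 or ZC3H7B replicate 1 or 2 (limma adjusted p = 0.166, 0.0514, 0.138 and 0.0863). For PABPC1 the difference of 0.12 lay on the other side and missed the threshold (limma adjusted p = 0.0561), although the groups did not overlap. The call was made on recovered reads by edgeR (adjusted p = 0.0179) and DESeq2 (adjusted p = 0.0180). The ratio of PABPC4 to PABPC1 per base was 0.617, 0.547 and 0.616 in the ZC3H7A libraries and 0.680, 0.671 and 0.734 in the ZC3H7B libraries, with the control between them at 0.659, 0.641 and 0.660. Neither line overlapped the control.

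The series title names codon-dependent regulation, so the third bases of the members' codons are given. PAIP2 has the largest share of codons ending in A or T, 62.7%, and 89.8% of 19447 coding sequences have a smaller one. PABPC1 and PABPC3 (59.8%) and PAIP1 (59.8%) follow. PAIP2B (47.5%), PABPC4L (45.8%), PABPC5 (45.7%) and PABPC4 (45.1%) lie in the middle. LARP1 (39.2%) lies at the median of all coding sequences, 39.4%, and PABPN1 (35.1%) below it. Whether these shares bear on any change given here was not tested. As an example of a high and a middle share, the first 90 coding bases of PAIP2 and LARP1 are printed; capitals mark an A or T at the third base of a codon, 20 in PAIP2 and 13 in LARP1.
PAIP2: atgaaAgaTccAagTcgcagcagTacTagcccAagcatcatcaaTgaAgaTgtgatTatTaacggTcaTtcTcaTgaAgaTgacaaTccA
LARP1: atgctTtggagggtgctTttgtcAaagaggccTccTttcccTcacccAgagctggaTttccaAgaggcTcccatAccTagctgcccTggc

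The libraries labelled ZC3H7A/B-DD, by label a ZC3H7A deletion plus a hairpin that targets ZC3H7B, were set against Parental. Footprints of neither target were lower in them. Of the 8 members tested other than PABPC4L, 1 passed, PABPC1, which was called higher. The background was 24.5% of 17092 genes called, 11.0% higher and 13.5% lower, and the members' share is no larger. The median log2 change was 0.30 over these 8 members and 0.02 over all genes. PABPC5 held 1 to 5 reads in Parental libraries and 0 to 5 in the others, too few to test.

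PABPC1 held 3776, 3907 and 8268 in Parental and 9869.7, 8065 and 8580 in the libraries labelled ZC3H7A/B-DD. Parental replicates 1 and 2 were low and replicate 3 lay among the other group, so the groups overlapped. The log2 change was 0.83 (SE 0.26, limma adjusted p = 0.0474). Without any 1 of the other 5 libraries it was between 0.63 and 0.89 with limma adjusted p of 0.0885 to 0.160, and without Parental replicate 3 it was 1.197 (limma adjusted p = 4.03e-05). On recovered reads edgeR (adjusted p = 0.101) and DESeq2 (adjusted p = 0.228) did not call it.

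Of the other cytoplasmic forms, PABPC4 and PABPC3 had the same pattern across these 6 libraries. PABPC4L did not: relative to Parental replicates 1 and 2, its mean log2 difference in the other group was -2.87. PABPC5 held too few reads to tell. PABPC4 held 7819, 7800 and 13645 in Parental and 12784, 14195 and 11592 in the libraries labelled ZC3H7A/B-DD. PABPC3 held 12.1, 15.6 and 43.7 against 61.4, 44.1 and 38.8. Parental replicate 3 was again inside the range of the other group. Neither passed with all libraries (log2 changes 0.45 and 1.17, limma adjusted p = 0.140 and 0.0799), and both passed without Parental replicate 3 (0.71 and 1.71, limma adjusted p = 0.000525 and 0.00294). Without that library the calls over all genes rose too, so nothing is read from the number of members called. EIF4G1, the initiation factor that PABPC1 contacts, held 12671, 15259 and 47727 in Parental and 41860, 44934 and 36094 in the others (log2 change 0.96, limma adjusted p = 0.120). Relative to Parental replicates 1 and 2, replicate 3 was higher by 1.78 on the log2 scale at EIF4G1, 1.60 at PABPC3, 1.11 at PABPC1 and 0.80 at PABPC4. Larger rises there were seen at 0.199%, 0.333%, 1.21% and 3.24% of genes. EIF4G1 was named after its values were seen. Over 11 initiation and termination factors that meet poly(A)-binding protein, EIF4G1 among them, the median for replicate 3 was 0.30 on the same scale. Of these, 3 stood more than 2-fold higher. LARP1 also stood highest in that library, at 13739 against 10136 and 10820.5, and the other group held 10854 to 11701. PAIP2 stood lowest in it, at 4634 against 6270 and 5882. The 13 PABPC1 pseudogene rows, summed, held 60.7, 68.6 and 146 in Parental and 152, 143 and 155 in the other group, so replicate 3 lay among the latter there too. PABPC3 and pseudogenes such as PABPC1P4 share windows with PABPC1. Their rows are therefore not separate cases, and how many PABPC1 reads they hold was not tested.

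The remaining members showed no called change there. PABPN1 held 180, 176 and 173 in Parental and 167, 329 and 332 in the libraries labelled ZC3H7A/B-DD, so replicate 1 of that group alone lay with Parental. Its log2 change was 0.58 (limma adjusted p = 0.114), and 0.90 without that replicate (limma adjusted p = 0.00335). BCL2L2, which moved with PABPN1 in the Flag/HA set, stood at 27.6 ± 8.53 and 27.7 ± 7.23. SLC22A17, on its other side, stood at 333 ± 41.5 and 624 ± 33.5. For PAIP1, PAIP2, PAIP2B and LARP1 the log2 changes were -0.02, 0.15, 0.12 and -0.01, with 95% intervals of -0.20 to 0.17, -0.13 to 0.44, -0.10 to 0.35 and -0.28 to 0.27.

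**Figure D4:**
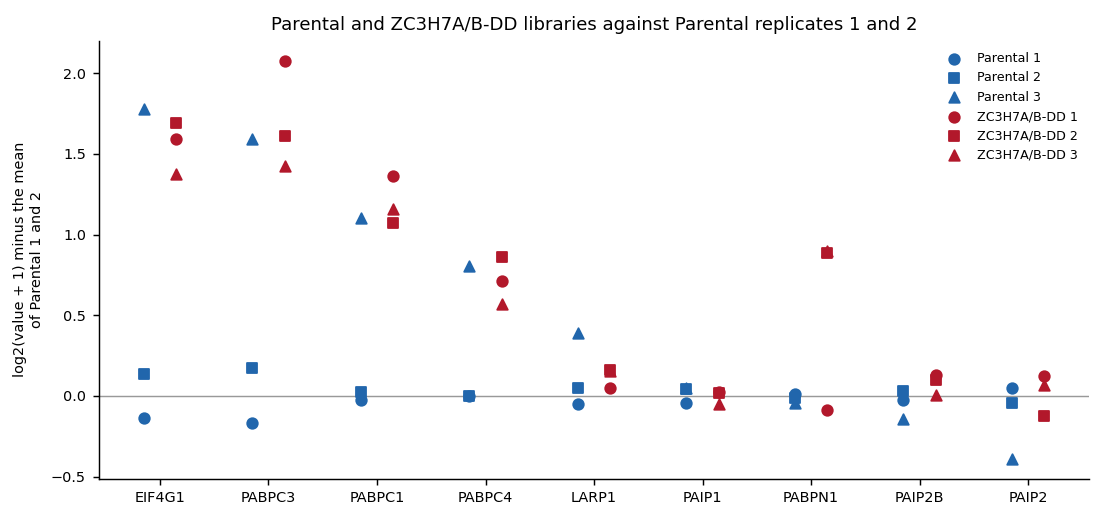
Log2(value + 1) of each library minus the mean of Parental replicates 1 and 2 (vertical axis) for EIF4G1 and 8 of the genes; blue, Parental; red, libraries labelled ZC3H7A/B-DD; marker shape, replicate. Parental replicate 3 lies 1.78 higher at EIF4G1 and 0.80 higher at PABPC4, beside the red libraries, and lies lowest at PAIP2.

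Genes that work with the members were described by 5 lists, whose counts stand against 57.5% of all genes called in the ZC3H7A line (29.2% higher, 28.2% lower) and 54.3% in the ZC3H7B line (28.9% higher, 25.4% lower). In the ZC3H7A line, 5 of 11 initiation and termination factors that meet poly(A)-binding protein were called higher and 3 lower, and in the ZC3H7B line 3 and 6 (median log2 changes -0.06 and -0.12). In the ZC3H7B line EIF4A2, an RNA helicase of initiation, rose from 7516.5 ± 177 to 9837 ± 428 (limma adjusted p = 1.94e-07), and the termination factor GSPT1, whose N-terminus binds PABPC1, fell from 21764 ± 194 to 17225 ± 724 (limma adjusted p = 4.80e-07). Of 16 cytoplasmic proteins that bind PABPC1 or act on its level, 5 were higher and 4 lower in each line. In the ZC3H7B line DAZAP1, an RNA-binding protein, rose from 9056.5 ± 18.02 to 11542 ± 151 and TOB1, a recruiter of deadenylases, fell from 2802 ± 65.8 to 1805 ± 30.5 (limma adjusted p = 1.57e-07 and 2.30e-10).

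Of 12 La-related and further poly(A)-binding protein genes, 9 were tested, with 3 higher and 3 lower in the ZC3H7A line and 2 and 4 in the ZC3H7B line. In the latter the paralogs LARP4B and LARP4, which both bind poly(A), parted: LARP4B rose from 4074 ± 148 to 5950.3 ± 171 and LARP4 fell from 8360 ± 197 to 5383 ± 103 (limma adjusted p = 9.98e-10 and 1.07e-11). Of 18 tail synthesis genes tested, 7 were higher and 6 lower in the ZC3H7A line and 6 and 3 in the ZC3H7B line, where the poly(A) polymerase PAPOLA rose from 6645 ± 53.1 to 9580 ± 140 and the cleavage nuclease CPSF3 fell from 7011 ± 160 to 6060 ± 235 (limma adjusted p = 3.64e-10 and 0.000255). Of 19 TOP mRNAs tested that encode no ribosomal protein, 5 were higher and 5 lower in the ZC3H7A line and 5 and 3 in the ZC3H7B line, where HNRNPA1, a splicing regulator, rose from 1783 ± 174.5 to 3047 ± 163 and EIF3E, an eIF3 subunit, fell from 18555 ± 270 to 15004 ± 1050 (limma adjusted p = 2.33e-09 and 2.21e-05). No set test was run, and with so large a share of all genes called in each direction nothing is read from these counts.

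Against Parental, where 24.5% of all genes were called (11.0% higher, 13.5% lower), the libraries labelled ZC3H7A/B-DD had 2 of 11 initiation and termination factors higher and 1 lower. GSPT2, the second eRF3, rose from 523 ± 232 to 1102 ± 167, and EIF4A1 fell from 57.3 ± 4.15 to 25.01 ± 5.68 (limma adjusted p = 0.0121 and 0.00738). The EIF4A1 row was low beside that of EIF4A2, which held 3739 in Parental and 4476 in the other group. Whether the EIF4A1 row holds all reads of its gene was not tested. In Parental replicate 3, 3 of these 11 genes stood more than 2-fold above replicates 1 and 2, namely EIF4G1, EIF4B and GSPT2. Of the 16 proteins that bind PABPC1 or act on its level, 2 were higher and 1 lower: TOB1 rose from 2495.5 ± 84.2 to 3044 ± 146 and the deadenylase subunit PAN2 fell from 1770.5 ± 121 to 739 ± 45.2 (limma adjusted p = 0.0308 and 4.69e-05). Among 9 La-related and further genes 3 were higher, with SSB, the La protein, from 7449 ± 978 to 10816 ± 1024, and 1 lower, LARP6, from 988 ± 55.8 to 771 ± 38.4 (limma adjusted p = 0.0108 and 0.0202). Tail synthesis genes gave 4 higher and 3 lower of 18, with CPSF1 from 4142 ± 247 to 5844 ± 568 and PAPD7 (now TENT4A) from 880.5 ± 17.8 to 383 ± 23.9 (limma adjusted p = 0.00727 and 6.26e-05). TOP mRNAs gave 4 higher and 3 lower of 19, with TPT1 from 2996 ± 307 to 5775 ± 575 and NACA from 24040 ± 1347 to 13882 ± 1340 (limma adjusted p = 0.000502 and 0.00117).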

How the data were processed

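Ribosome footprints were measured in 15 HEK293 libraries. The authors deposited a normalized signal per gene name, which they name normalized counts, made with HTSeq, STAR, Bowtie, cutadapt and DESeq2 per the submitters' processing notes, which list hg19 beside hg38 and give no version or role. For the build used for alignment, the range of footprint lengths and the counting of reads with several positions, the answer is not given in the sources used here. In units of each library's smallest step, 100% of values came out whole to within 0.001 reads, so the signal is a scaled read count, and the depths above are sums of these reads, over all 55773 rows. The 28 names turned into dates by a spreadsheet (0.173% to 0.285% of reads) stayed in all fits. One marker gene is not reported here and was left out of its list.

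Values were tested with limma 3.58.1 (lmFit, eBayes with trend) in R 4.3.3 on log2(value + 1). A gene entered where 3 or more of the fitted libraries reached 10, and p-values were adjusted over all genes entered (Benjamini-Hochberg, threshold 0.05). One model covered the 9 Flag/HA libraries and a separate one the other 6. With the recovered reads, the quasi-likelihood test of edgeR 4.0.16 called 9059, 8494, 5856 and 4132 genes in the order ZC3H7A, ZC3H7B, ZC3H7A against ZC3H7B and ZC3H7A/B-DD against Parental, and DESeq2 1.42.0 called 8528, 7934, 5360 and 4152. The step that fits limma was tested on simulated data with known changes. Counting intervals are exact at 95%, and the floor is 3 counts over a group.

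The members and lists were chosen with earlier results of these data known. Named genes are all members, the targets, the 5 genes most like PABPC4L, and, for each list, the called gene per direction with the smallest p in the ZC3H7B and the ZC3H7A/B-DD comparison. Neighbouring genes, EIF4G1 and EIF4B were named after their values were seen. Coding sequences were read from GENCODE 29 transcripts with Python 3.11.15 and aligned with Biopython 1.88. Alternatives were other pseudocounts, filters, scalings and tools, a replicate block, 1 fit over all libraries, summed near-identical rows and each library left out.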

Additional observations from a re-analysis of the deposited data

Results flagged for a closer look

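PAIP2B differed between the overexpressing lines: its log2 change against the control was -0.16 with ZC3H7A and 0.14 with ZC3H7B, and the difference of -0.30 passed (limma adjusted p = 0.00163). PABPC4 differed by -0.11 between the same lines (limma adjusted p = 0.0416), a call that was lost when any of several single libraries was left out, as given above. PABPC4L lay below the control in every ZC3H7A library and above it in every ZC3H7B library, a difference of -7.81 on the log2(value + 1) scale. That difference was not tested, because it chose the members. The lines share their control libraries.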

How the results depend on the processing

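Member counts here include PABPC4L for ZC3H7A/B-DD wherever it passed the filter (2 with all libraries, against 1 without PABPC4L). With all libraries it passed there only through Parental, so nothing is read from its call. The calls of PABPN1 in both overexpressing lines and of PABPC4L in the ZC3H7B line held under every alternative run, the latter with log2 changes of 2.24 to 2.58. With 1 library left out, the members called numbered 2 to 3 for ZC3H7A, 3 to 5 for ZC3H7B, 1 to 3 between these lines and 0 (without Parental replicate 1 or 2) to 3 (without Parental replicate 3) for ZC3H7A/B-DD, where the genes called ran from 1895 (without Parental replicate 2) to 5560 (without Parental replicate 3), with 2452 without Parental replicate 1 and 2558 without ZC3H7A/B-DD replicate 3, against 4182. A single fit over all 15 libraries called 1, 2, 1 and 5 members. In the same order the main fits called 57.5%, 54.3%, 36.6% and 24.5% of all genes. The share of all genes in the single fit is not given here, so nothing is read from the member counts in this paragraph. Between the lines 1 member was called with no filter or upper-quartile scaling. For ZC3H7A/B-DD, 1 was called with a filter of 50, TMM or upper-quartile scaling, or edgeR. PABPC4L, at most 16.3 in that set, could not enter with a filter of 50. Nor could it enter that comparison without any 1 Parental library. Other causes were not tested. Upper-quartile scaling split all calls into 3671 higher and 5336 lower for ZC3H7A and 3433 and 4986 for ZC3H7B, against 4559 and 4405, and 4509 and 3966.

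Directions that turned all belonged to changes that did not pass. PAIP1 with ZC3H7A became 0.031 without ZC3H7A replicate 3 and 0.014 without Flag/HA control replicate 1 (lowest -0.14). With ZC3H7B, PABPC1 became 0.028 without ZC3H7B replicate 3 (lowest -0.058), PABPC3 -0.026 summed with PABPC1 and its pseudogenes, and PABPC4 -0.025 with upper-quartile scaling. Between the lines PABPC3 became -0.087 without ZC3H7B replicate 1 (highest 0.35) and PAIP2 0.0094 without ZC3H7B replicate 2 (lowest -0.10). For ZC3H7A/B-DD, PAIP1 became 0.010 with upper-quartile scaling and 0.0042 without ZC3H7A/B-DD replicate 3 (lowest -0.049), and LARP1 0.021 with upper-quartile scaling, 0.028 without ZC3H7A/B-DD replicate 1 and 0.12 without Parental replicate 3 (lowest -0.097). The PABPC4L changes that used the ZC3H7A line ran from -3.43 (pseudocount 5) to -6.83 (DESeq2) against the control and from -5.79 to -9.25 against ZC3H7B.

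Replicate numbers did not pair the samples: correlations of same-numbered deviations ran from -0.13 to 0.09. With a replicate block 9169, 8714, 6026 and 2992 genes were called, and PABPC1 passed between the lines (limma adjusted p = 0.0246). Low reads limit PABPC3, PABPC4L and PABPC5.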
